A study of Mus musculus with 6 samples.

Results

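The genes described here are regulators of cell death from the BCL2, inhibitor of apoptosis (IAP) and caspase-8 inhibitor families, measured in mouse dendritic cells (DCs). They were taken from a list of 10 gene symbols, and 9 of the 10 had a probe set annotated to that symbol alone, out of 12393 genes measured in all: Bcl2, Bcl2l1, Mcl1, Bcl2l11, Bid, Bak1, Birc2, Birc3 and Cflar. Bax was not analysed here. Total RNA came from CD11c-positive conventional DCs sorted by flow cytometry from BALB/c spleens or lymph nodes (an inbred mouse strain), with no treatment, age or sex named in the labels, and was hybridised to Affymetrix 3′ arrays. Each organ had 3 arrays. Whether arrays stand for separate animals or pools is not in the labels, so p-values below measure only a spread between arrays that may be technical. In RNA from sorted cells fewer cells of a type and less RNA per cell cannot be told apart.

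Apoptosis through mitochondria is set by proteins of the BCL2 family. Bcl2, Bcl2l1 (BCL-XL) and Mcl1 encode guardians that hold the pore-forming effectors Bax and Bak1 in check, and Bcl2l11 (BIM) and Bid encode BH3-only proteins that release or activate those effectors. Death receptors such as Fas and the TNF receptor instead signal through caspase-8, which the protein encoded by Cflar (c-FLIP) restrains, while the ubiquitin ligases cIAP1 (Birc2) and cIAP2 (Birc3) keep the TNF receptor complex in a survival-signalling state. DCs are short-lived cells, BIM is known to limit their lifespan, and MCL1, BCL2 and BCL-XL are known to extend it.

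Promoter sequences are shown for the 3 genes with the largest differences between the organs, Bcl2l11, Birc2 and Cflar, and for Birc3, the neighbour of Birc2 on chromosome 9, whose values did not follow those of Birc2. Each window runs from 250 bases before to 50 bases after a transcription start in RefSeq (assembly GRCm38.p6), 5′ to 3′ on the gene's own strand. Capitals mark matches, on either strand, to motifs searched by their letters: the NF-kB motif GGGNNTTNCC, the FoxO motif GTAAACA, the cyclic AMP response element TGACGTCA, the interferon response element GAAANNGAAA, the AP-1 motif TGANTCA and the E-box CACGTG. The windows lie at chr2:128125788-128126087 (plus strand, the first of 2 RefSeq starts), chr9:7837008-7837307 (minus strand, the first of 2), chr9:7873121-7873420 (minus strand) and chr1:58711241-58711540 (plus strand).
Bcl2l11: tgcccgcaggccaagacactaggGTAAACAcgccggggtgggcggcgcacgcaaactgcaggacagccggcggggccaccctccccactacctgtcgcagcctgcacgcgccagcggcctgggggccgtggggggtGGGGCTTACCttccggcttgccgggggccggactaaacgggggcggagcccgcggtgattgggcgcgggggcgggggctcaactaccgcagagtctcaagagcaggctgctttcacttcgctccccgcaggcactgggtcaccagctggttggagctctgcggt
Birc2: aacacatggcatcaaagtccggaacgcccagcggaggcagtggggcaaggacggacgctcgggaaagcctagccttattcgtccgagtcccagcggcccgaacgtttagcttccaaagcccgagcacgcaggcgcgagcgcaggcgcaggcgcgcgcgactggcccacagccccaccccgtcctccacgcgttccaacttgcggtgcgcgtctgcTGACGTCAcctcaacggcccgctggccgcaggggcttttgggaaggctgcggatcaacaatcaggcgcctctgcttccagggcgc
Birc3: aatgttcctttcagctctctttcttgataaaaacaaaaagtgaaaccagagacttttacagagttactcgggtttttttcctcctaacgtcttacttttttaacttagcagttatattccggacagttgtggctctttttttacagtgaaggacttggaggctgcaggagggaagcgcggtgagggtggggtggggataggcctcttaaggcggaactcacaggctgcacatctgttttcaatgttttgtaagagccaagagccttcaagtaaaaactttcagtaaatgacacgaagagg
Cflar: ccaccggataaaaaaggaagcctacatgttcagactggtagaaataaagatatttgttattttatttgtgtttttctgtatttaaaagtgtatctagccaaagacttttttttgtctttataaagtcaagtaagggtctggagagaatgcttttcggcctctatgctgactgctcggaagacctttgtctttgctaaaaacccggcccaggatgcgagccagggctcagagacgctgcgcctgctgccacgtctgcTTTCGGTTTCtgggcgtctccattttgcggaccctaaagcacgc

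The window of Bcl2l11 held the FoxO letters at -227 to -221 and the NF-kB letters at -114 to -105 from the start. Among 32851 promoter windows of this length, 3.65% held the FoxO letters and 4.79% the NF-kB letters. The window of Birc2 held the cyclic AMP response element at -35 to -28, which 1.79% of windows hold, and that of Cflar held the interferon response letters on the opposite strand at 7 to 16, which 3.44% hold. The window of Birc3 held none of the 6 motifs, of which AP-1 and the E-box occur in 7.81% and 7.15% of windows. Matches did not overlap one another. The windows of Birc2 and Birc3 differed in composition, with 67% and 43% G and C against a median of 52.7% over all windows. The shares were 71% for Bcl2l11 and 45% for Cflar. All 9 genes had at least 1 window. Among windows not printed, that of Mcl1, whose means were nearly equal in the organs, held the NF-kB letters at -28 to -19. A window of Bcl2l1 held them at -218 to -209. The second windows of Bcl2l11 and Birc2 held none of the 6 motifs. These matches describe letters, not bound sites.

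Array medians were 39.4 to 41.3 intensity units, and the number of arrays limits the precision. Markers of conventional DCs were well measured, with a mean log2 intensity over 9 genes of 9.88 to 10.09 in the lymph node arrays and 9.10 to 9.81 in the spleen arrays, and 2 of the 9, Itgax and Ciita, were lower in spleen. Only Irf8 of this list had a higher mean in spleen, by a log2 difference of 1.67, which did not pass (limma adjusted p = 0.156). Marker counts here are of genes with a limma adjusted p under 0.05. By that rule 2.03% of all genes were higher and 1.37% lower in spleen. Genes of mature or migratory DCs, which textbooks place in lymph nodes, mostly ran against the labels. Of the 9, 4 were higher in spleen as labelled and 0 lower, with list means of 8.18 to 8.53 against 7.08 to 7.30. Only Cd83 (log2 difference -0.46) and Relb (-0.40) had lower means in spleen, and neither passed. Cd86 differed by only 0.085 with overlapping groups. Il4i1 was very dim, at 2.00 to 2.23 in lymph node and 2.32 to 2.61 in spleen, so these 2 genes show no clear direction. An exchange of the organ labels, which would turn the sign of every difference given here, was not tested, and the groups are named as labelled throughout. Plasmacytoid DC markers (3 of 9 higher, 0 lower) had means of 6.92 to 8.49 in spleen and 5.10 to 6.20 in lymph node, T cell markers (1 of 7 higher, 0 lower) 5.24 to 6.72 and 3.87 to 5.63, and NK cell markers (0 of 6) 5.07 to 6.73 and 4.61 to 5.67. Neutrophil markers (1 of 7 lower) had 3.03 to 3.58 and 3.81 to 4.96, macrophage markers (1 of 8 higher) 5.07 to 5.42 and 4.88 to 6.06, and B cell markers (0 of 6) 3.98 to 4.59 and 3.93 to 4.51. No marker was at 0, since the lowest intensity in the table was 2.1. The bacterial poly-A control probe sets were also higher in the spleen arrays, at 7.18 to 7.71 against 6.41 to 6.80 (difference 0.88, two-sided exact permutation p = 0.10, the smallest that 3 against 3 arrays allow).

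Lymph node array 3 stood apart from the other lymph node arrays and towards the spleen arrays. Its plasmacytoid DC markers had a mean of 6.20 against 5.10 and 5.15 in lymph node arrays 1 and 2, its T cell markers 5.63 against 4.41 and 3.87, and its NK cell markers 5.67 against 4.61 and 4.68. The mean of its macrophage markers, at 6.06 against 4.88 and 4.90, was above that of every spleen array. The genes of this list did not go one way. C1qb (7.28) and Vcam1 (7.66) were above every other array. Adgre1 (7.35 against 7.90 and 7.54) and Cd68 (8.04 against 8.70 and 9.05) were the lowest of the lymph node group. Marco, at 5.03, was below the spleen arrays (6.01 to 7.01). Calls that change without lymph node array 3 are given both ways. The spleen arrays also differed among themselves. In spleen array 1 the mean of T cell markers was 6.72, against 5.24 and 5.80 in spleen arrays 2 and 3. That of NK cell markers was 6.73 against 5.07 and 5.54. Plasmacytoid DC markers had a mean of 8.49 in spleen array 3, against 7.02 and 6.92 in spleen arrays 1 and 2.

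The comparison asked whether regulators of DC death and survival differ between the organs. Bcl2l11, Birc2, Cflar, Bcl2l1 and Bcl2 had higher mean values in the arrays labelled spleen, Bid and Bak1 had lower ones, and Mcl1 and Birc3 had nearly equal means. None of these differences passed limma's test over all genes: 0 of 9 members had an adjusted p under 0.05, where 3.40% of all genes did (2.03% higher and 1.37% lower in spleen). At an unadjusted p under 0.05 there were 5 of 9, 4 higher (Bcl2l11, Birc2, Cflar, Bcl2l1) and 1 lower (Bid), against 19.0% of all genes (9.30% higher and 9.75% lower). The same 5 members were those whose groups did not overlap, which 24.5% of all genes also showed. The median log2 difference, spleen minus lymph node, was 0.50 over the 9 members and -0.0053 over all genes. With 9 genes chosen by name these counts are a description of the list.

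**Figure D1:**
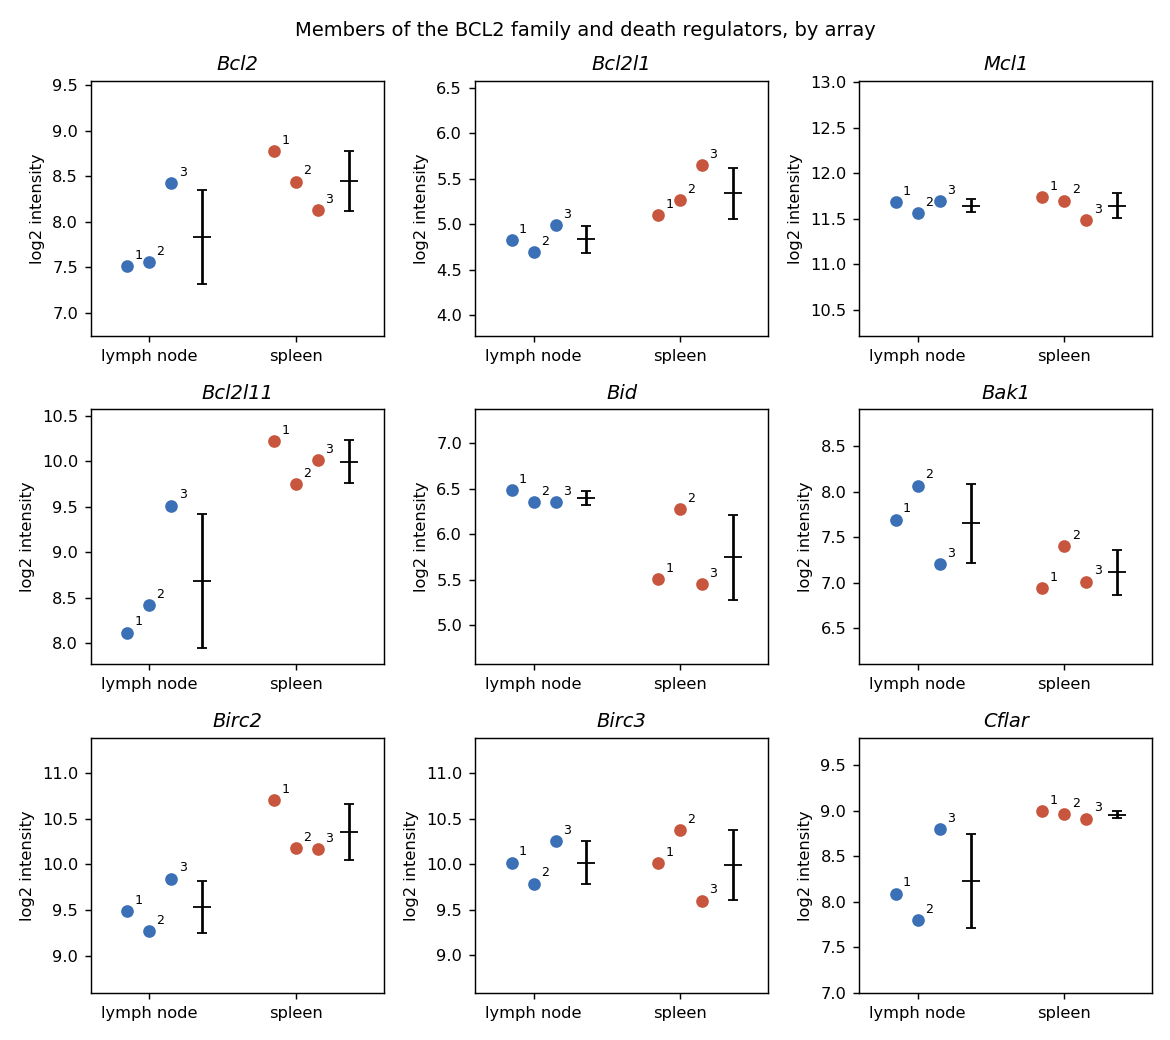
Log2 intensity of each of the 9 members in the 3 lymph node arrays (blue) and the 3 spleen arrays (red), numbered as in the labels; black marks give the group mean and SD (n = 3), and every panel spans the same range of log2 units. Lymph node array 3 lies above the other lymph node arrays for Bcl2, Bcl2l1, Bcl2l11, Birc2, Birc3 and Cflar, and narrowly for Mcl1. It lies below them for Bak1. The groups overlap for Bcl2, Mcl1, Bak1 and Birc3.

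Among the BH3-only genes, Bcl2l11, whose product BIM binds all the BCL2-type guardians, had the largest difference of the 9. Its brightest probe set (1456005_a_at) read 8.12, 8.42 and 9.51 in lymph node arrays 1 to 3 and 10.22, 9.75 and 10.02 in spleen arrays 1 to 3, on the log2 scale. All 3 spleen values were above all 3 lymph node values, and lymph node array 3 was the nearest to them. The means were 9.99 ± 0.24 in spleen and 8.69 ± 0.73 in lymph node (SD, n = 3 each), a difference of 1.31 ± 0.35 (SE) or 2.48-fold, with a 95% interval of 0.50 to 2.12, and it did not pass (limma adjusted p = 0.0898). Without lymph node array 3 the difference was 1.72 and passed (adjusted p = 0.0193). With any other single array left out it lay between 1.03 and 1.43 and did not pass. Of the 5 probe sets of Bcl2l11, all had the same sign, from 0.22 to 1.31, and 1435448_at gave the smallest adjusted p of any probe set of the members, 0.0699 over all probe sets. That probe set read 6.27, 6.67 and 7.11 in lymph node and 8.18, 7.51 and 7.78 in spleen, again without overlap and with lymph node array 3 highest of its group. Poly-A controls, plasmacytoid DC markers and mature DC genes had higher values in the same arrays as Bcl2l11. Fitted with the poly-A control level as covariate, the difference was 0.038, but that level separates the groups, so level and group cannot be told apart. The part of the other cell types' markers was not tested.

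Bid, whose product links caspase-8 to the mitochondria, had values in the opposite direction. It read 6.49, 6.35 and 6.35 in the lymph node arrays and 5.50, 6.28 and 5.45 in the spleen arrays. The lymph node values were tight, and spleen array 2 lay just below them while spleen arrays 1 and 3 were clearly lower. The means were 5.74 ± 0.46 and 6.40 ± 0.077 (SD, n = 3 each), a difference of -0.65 ± 0.24 (SE), 95% interval -1.21 to -0.097, which did not pass (limma adjusted p = 0.192). Without spleen array 2 the difference was -0.92 and passed narrowly (adjusted p = 0.0460). In the fit with the poly-A covariate it was 0.39 ± 0.42 (SE), with no clear direction. The second probe set of Bid had the same sign (-0.48).

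Bak1, the measured effector that forms pores in the outer mitochondrial membrane, read 7.70, 8.07 and 7.20 in the lymph node arrays and 6.94, 7.40 and 7.01 in the spleen arrays. Spleen array 2 overlapped with lymph node array 3. The difference was -0.54 ± 0.25 (SE), 95% interval -1.12 to 0.045 (limma adjusted p = 0.301), and the second probe set gave -0.72. In the fit with the poly-A covariate the value was 0.16 ± 0.56 (SE), so that fit gives no clear direction.

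The guardian genes did not share one pattern. Bcl2, with 1 probe set, read 7.51, 7.56 and 8.42 in the lymph node arrays and 8.78, 8.44 and 8.13 in the spleen arrays. Lymph node array 3 lay above spleen array 3, so the groups overlapped. The difference was 0.62 ± 0.29 (SE), 95% interval -0.053 to 1.29 (limma adjusted p = 0.302). Without lymph node array 3 it was 0.91 (adjusted p = 0.109), and in the fit with the poly-A covariate it was 0.14.

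Bcl2l1, which encodes BCL-XL, was dim, with all 4 of its probe sets below 6 on the log2 scale, where the array medians were 5.30 to 5.37. Its brightest read 4.83, 4.69 and 4.99 in the lymph node arrays and 5.10, 5.27 and 5.65 in the spleen arrays. The groups did not overlap, lymph node array 3 and spleen array 1 being the nearest. The difference was 0.50 ± 0.19 (SE), 95% interval 0.055 to 0.95 (limma adjusted p = 0.210). All 4 probe sets had the same sign, from 0.16 to 0.87, and 3 of them had an unadjusted p under 0.05. In the fit with the poly-A covariate the brightest gave 0.25. The largest of these differences, that of 1426191_a_at, came from values of 4.15, 4.57 and 3.75 in lymph node and 5.36, 4.85 and 4.87 in spleen, near the lower part of the scale, where a difference of intensities is least certain.

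Mcl1, a guardian with a short-lived protein on which DCs are known to depend, was bright in every array. It read 11.68, 11.56 and 11.69 in the lymph node arrays and 11.74, 11.70 and 11.49 in the spleen arrays, and the groups overlapped throughout. The difference was -0.0016 ± 0.15 (SE), with a 95% interval of -0.36 to 0.36 for this probe set (limma adjusted p = 0.997). Another probe set, 1416881_at, gave -0.34 with an interval of -0.79 to 0.099. Of its 6 probe sets 2 had positive and 4 negative differences, between -0.34 and 0.051. The brightest and both positive ones were _x_at probe sets, which may cross-hybridise. With cross-hybridising probe sets left out the difference was -0.175 (limma adjusted p = 0.712). The sign of the brightest turned with the scaling (0.017 with median centring, 0.082 with a second quantile normalization).

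**Figure D2:**
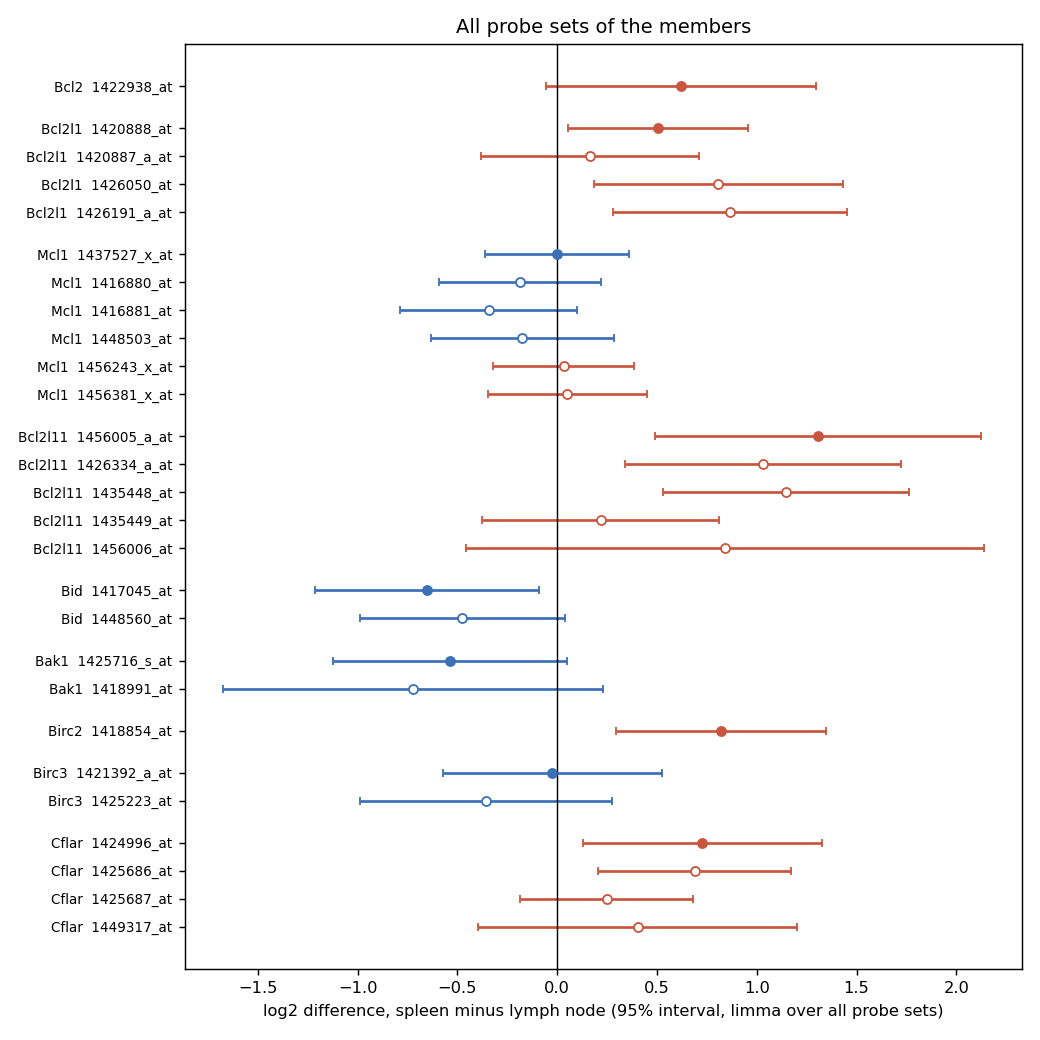
Log2 difference, spleen minus lymph node, with its unadjusted 95% interval for all 27 probe sets of the members; filled points are the brightest probe set of each gene, red is higher and blue lower in spleen. All 5 probe sets of Bcl2l11 and all 4 of Bcl2l1 and of Cflar lie to the right of 0, both probe sets of Bid, of Bak1 and of Birc3 lie to the left, and those of Mcl1 lie on either side.

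Over the 27 probe sets of the members, 0 passed an adjusted p of 0.05 in limma, where 2.78% of all probe sets did, and 10 had an unadjusted p under 0.05, where 18.4% did. These 10 belonged to Bcl2l1 (3), Bcl2l11 (3), Cflar (2), Bid (1) and Birc2 (1). Probe sets of a gene share their RNA and are not independent.

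The IAP genes Birc2 and Birc3 are neighbours on chromosome 9 and encode closely related ubiquitin ligases. Birc2 read 9.49, 9.27 and 9.84 in the lymph node arrays and 10.71, 10.18 and 10.17 in the spleen arrays. Every spleen value was above every lymph node value, with lymph node array 3 the nearest. The means were 10.35 ± 0.31 and 9.53 ± 0.29 (SD, n = 3 each), a difference of 0.82 ± 0.23 (SE) or 1.77-fold, 95% interval 0.30 to 1.34 (limma adjusted p = 0.0963). It lay between 0.64 and 0.98 with 1 array left out and passed in none of those 6 fits, the smallest adjusted p being 0.0948. In the fit with the poly-A covariate it was 0.41.

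Birc3 read 10.02, 9.78 and 10.25 in the lymph node arrays and 10.01, 10.37 and 9.60 in the spleen arrays. Its lowest and its highest value were both in the spleen group. The difference was -0.024 ± 0.23 (SE), 95% interval -0.57 to 0.52 (limma adjusted p = 0.971), and its second probe set gave -0.36. The sign of the brightest probe set changed, the difference being 0.093 without lymph node array 3, 0.17 without spleen array 3 and 0.59 ± 0.53 (SE) in the fit with the poly-A covariate. Within each array, the log2 value of Birc2 minus that of Birc3 was -0.53, -0.51 and -0.41 in the lymph node arrays and 0.70, -0.19 and 0.57 in the spleen arrays. This measure was chosen after the values of both genes had been seen, so it is given as a description, with no test.

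Cflar, the caspase-8 inhibitor of death receptor signalling, read 8.09, 7.80 and 8.80 in the lymph node arrays and 8.996, 8.96 and 8.91 in the spleen arrays. The spleen arrays were close to each other, and lymph node array 3 came to just below them. The means were 8.96 ± 0.042 and 8.23 ± 0.51 (SD, n = 3 each), a difference of 0.73 ± 0.26 (SE) or 1.65-fold, 95% interval 0.13 to 1.32, which did not pass (limma adjusted p = 0.176). Without lymph node array 3 the difference was 1.01 and passed narrowly (adjusted p = 0.0478). All 4 probe sets had positive differences, from 0.25 to 0.73, and in the fit with the poly-A covariate the difference was 0.39.

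**Figure D3:**
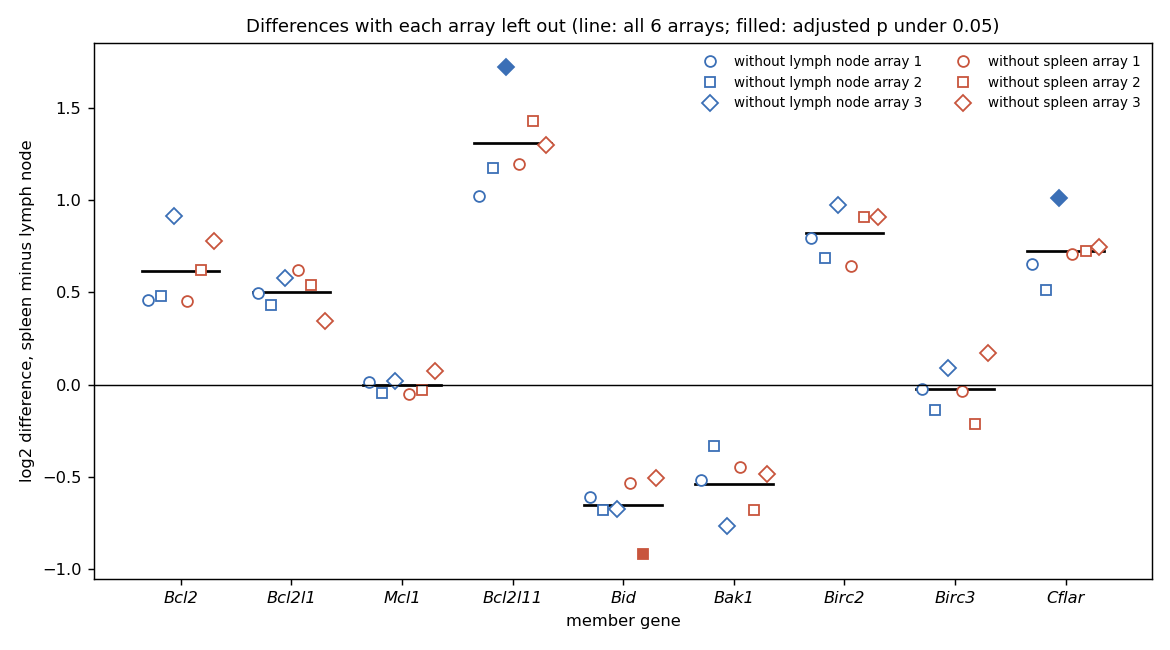
Log2 difference, spleen minus lymph node, of each member with all 6 arrays (black line) and with each array left out (points; blue for a lymph node array and red for a spleen array left out, filled where the adjusted p was under 0.05). Only 3 points are filled, Bcl2l11 (1.72) and Cflar (1.01) without lymph node array 3 and Bid (-0.92) without spleen array 2.

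The count of members past the threshold thus depended on single arrays: it was 0 with all 6, 2 without lymph node array 3, 1 without spleen array 2 and 0 without any of the other 4. Without both arrays numbered 3 it was 1, Bcl2l11, at 1.71 (limma adjusted p = 0.0256). Marker levels of plasmacytoid DCs, T cells and NK cells, given above, were higher in lymph node array 3 than in the other lymph node arrays; their part in these values was not tested.

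Other genes of cell death were taken from a list by role. Of 54 listed genes, 43 were measured by a probe set of their own, and 4 of the 43 passed limma's test, 1 higher in spleen and 3 lower, against 2.03% and 1.37% of all genes. The median difference was 0.022, and at an unadjusted p under 0.05 there were 3 higher and 9 lower of the 43, where 9.30% of all genes were higher and 9.75% lower. Of the 6 death receptors and ligands 1 was higher and 2 lower, of the 7 BH3-only genes 1 was lower, and none passed in the other classes.

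Fas, the receptor of Fas ligand, had the largest difference of the wider list. It read 4.78, 4.24 and 5.04 in the lymph node arrays and 7.20, 6.22 and 6.13 in the spleen arrays. The groups did not overlap, with lymph node array 3 and spleen array 3 the nearest. The difference was 1.83 ± 0.33 (SE), or 3.55-fold (limma adjusted p = 0.0331), and it lay between 1.48 and 2.02 with 1 array left out, passing in 3 of the 6 fits. The ligand gene Fasl differed by 0.022 (adjusted p = 0.976) in its brighter probe set and by 1.11 in the other (adjusted p = 0.600 over all probe sets), where spleen array 1 read 6.08 and the other 5 arrays 2.04 to 2.85.

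The receptor gene Tnfrsf1a and its ligand gene Tnf were both lower in spleen. Tnfrsf1a read 7.76, 7.99 and 7.14 in the lymph node arrays and 6.22, 6.50 and 5.72 in the spleen arrays, a difference of -1.48 ± 0.28 (SE, limma adjusted p = 0.0373). Tnf read 6.46, 6.51 and 5.91 in the lymph node arrays and 5.44, 5.13 and 4.86 in the spleen arrays, a difference of -1.15 ± 0.23 (SE, limma adjusted p = 0.0414). Neither pair of groups overlapped. Bmf, which encodes a BH3-only protein released from the cytoskeleton, read 6.38, 5.90 and 6.19 in the lymph node arrays and 4.18, 5.14 and 4.82 in the spleen arrays. It was lower in spleen, by a difference of -1.44 ± 0.27 (SE, limma adjusted p = 0.0343). The BH3-only genes Bmf and Bcl2l11 thus had differences of opposite sign, of which only that of Bmf passed.

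These 4 calls also depended on single arrays. None of the 4 passed when lymph node array 1, lymph node array 2 or spleen array 1 was left out. Without spleen array 3 only Fas of the 4 passed (adjusted p = 0.0369), and the count of the wider list was 2. Without lymph node array 3 Bmf lost its call (-1.43, adjusted p = 0.0806) and the other 3 passed. Without spleen array 2 Tnf lost its call (-1.14, adjusted p = 0.0801) and the other 3 passed. In the fit with the poly-A covariate the differences were 1.38 for Fas, -0.50 for Tnfrsf1a, -0.82 for Tnf and -0.55 for Bmf, and 0 of the 4 passed. With 16 added to each intensity before the log2 step, Fas (limma adjusted p = 0.0673), Tnfrsf1a (0.0607) and Tnf (0.0607) lost their calls. Bmf kept its call (0.0491). With median centring Tnf lost its call (0.0520). The lymph node values of Fas and the spleen values of Bmf lay below the array medians. Each of the 4 genes had only 1 probe set.

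In the classes with no call, the gene with the smallest adjusted p was Traf2, an adaptor that recruits cIAP proteins to TNF receptors, with -0.82 ± 0.23 (SE, limma adjusted p = 0.107) among adaptors and kinases. It was Casp8, the initiator caspase of death receptors, with -0.48 ± 0.15 (adjusted p = 0.139) among caspases, and the mitochondrial nuclease gene Endog with -0.55 ± 0.19 (adjusted p = 0.172) in its class, where its second probe set gave -0.098. Diablo, whose product antagonises IAPs, had -0.47 (adjusted p = 0.332) and -0.55 in its second probe set, and Apaf1, the apoptosome scaffold gene, had -0.45 (adjusted p = 0.399) and -0.25. Bcl2l2, a further guardian gene, had 0.55 (adjusted p = 0.407) in its brightest probe set and -0.063, -0.040 and 0.016 in the other 3, and Bok, a relative of the effectors, had 0.10 (adjusted p = 0.784). These values did not pass, and those of Traf2, Casp8 and Endog came from groups that did not overlap. Such groups were found for 11 of the 43 genes and for 24.5% of all genes.

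**Figure D4:**
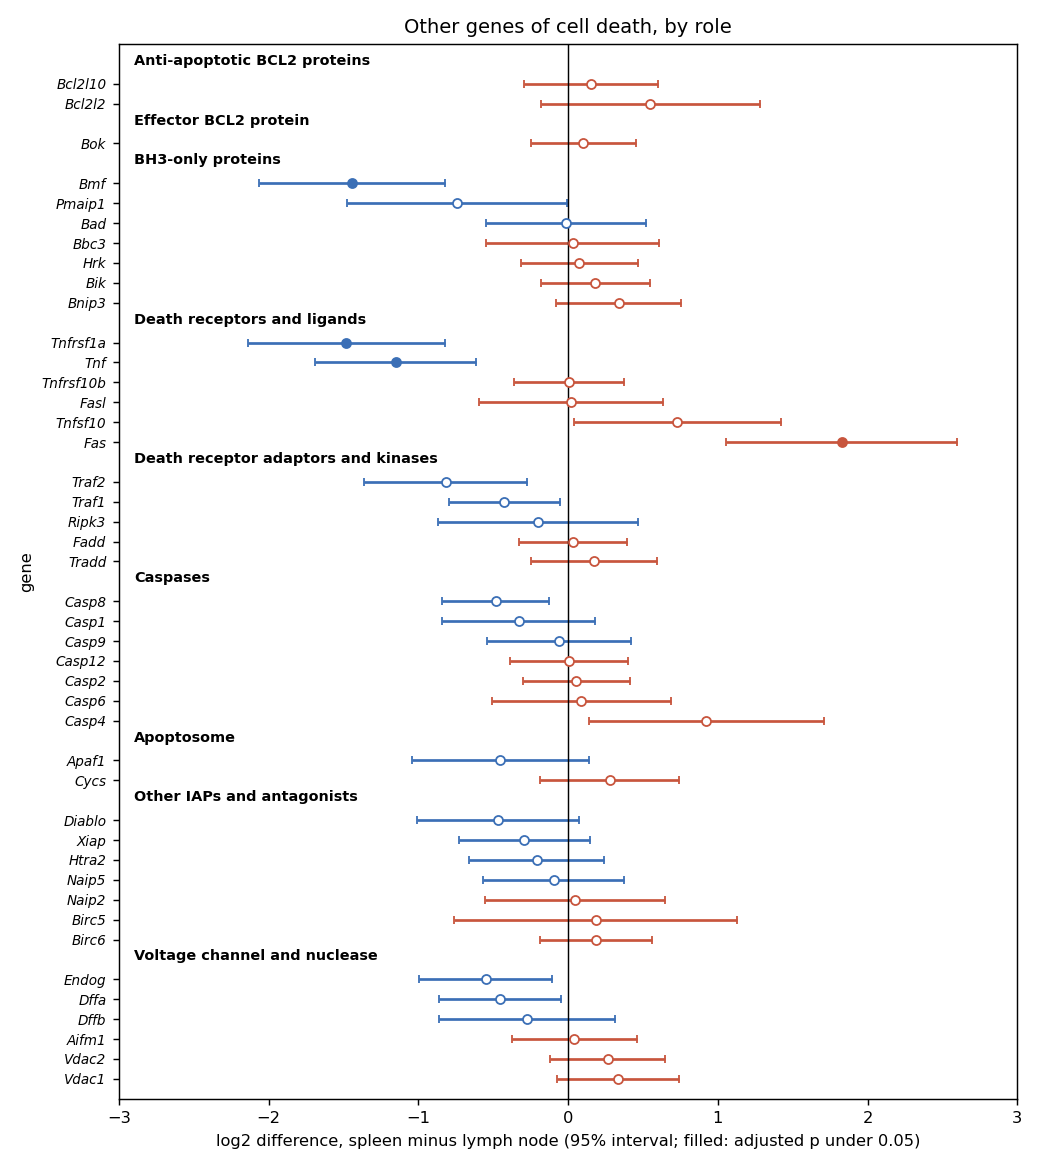
Log2 difference, spleen minus lymph node, with its unadjusted 95% interval for the 43 other genes of cell death, grouped by role; filled points passed an adjusted p of 0.05. The filled points are Fas (1.83) on the right and Bmf (-1.44), Tnfrsf1a (-1.48) and Tnf (-1.15) on the left.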

How the data were processed

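Intensity values of 22690 probe sets on 6 arrays were used as the authors deposited them, on a linear scale rounded to 1 decimal. RMA and limma are named in the submitters' processing notes, with versions and any floor not given in the sources used here. Values were transformed to log2 with no offset or filter. Groups came from the sample titles. Control probe sets (64) were left out, 20380 probe sets carried 1 gene symbol, 691 several, and for each of 12393 genes the probe set brightest on average was taken. The organs were compared in limma 3.58.1 (lmFit, eBayes; R 4.3.3), two-sided. P-values were adjusted by Benjamini-Hochberg across the whole table of genes or probe sets, at 0.05; intervals are not adjusted. The members and lists were chosen with earlier results of these data known. Every member is named, with those of the wider list that passed or had the smallest adjusted p of their class; 11 genes of that list, among them the Bcl2a1 genes, which share probe sets, were not analysed here. The fit was tested on simulated data. Alternatives were other scalings, an offset of 16, filters, weights, a replicate block, arrays left out, other probe sets, thresholds and a poly-A covariate.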

Additional observations from a re-analysis of the deposited data

How the results depend on the processing

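The count of 0 members past the threshold held in 15 of 19 alternatives. It was 1 with array weights and without both arrays numbered 3 (Bcl2l11 in each, 1.51 and 1.71), and 0 to 2 with 1 array left out. The wider list's count of 4 was 1 with the offset of 16, 0 at an adjusted p of 0.01, 0 with the poly-A covariate and 0 to 3 with 1 array left out. Of all genes, 421 passed, against 764 with array weights, 63 at 0.01, 0 with the poly-A covariate (limma, where 745 had an unadjusted p under 0.05) and 47 to 475 with 1 array left out. Of 144 differences of members over 16 alternatives, 15 turned their sign and 5 came to pass. Mcl1, at -0.0016, turned to 0.017 with median centring, 0.082 with a second quantile normalization, 0.025 with array weights, 0.14 with the poly-A covariate, 0.10 without both arrays numbered 3 and 0.032 and 0.051 in its other _x_at probe sets; with 1 array left out it ranged from -0.050 to 0.076, including 0.017 and 0.022 when lymph node array 1 or 3 was left out. Birc3, at -0.024, turned to 0.10 with array weights, 0.59 with the poly-A covariate and 0.29 without both arrays numbered 3, and ranged from -0.21 to 0.17, including 0.093 without lymph node array 3. Bid turned to 0.39 ± 0.42 (SE) and Bak1 to 0.16 ± 0.56 with the poly-A covariate, a level that separates the groups. Some of these fits had fewer arrays or residual degrees of freedom, and the cause of the changes was not tested. The deviations of arrays sharing a replicate number correlated at 0.022, 0.24 and 0.16, and those of the other pairs at -0.28 to 0.13. Lymph node array 1 correlated best with spleen array 2 (0.13). With 3 arrays per group these values do not decide whether the numbers pair the arrays. With the replicate block 0 members, 3 of the wider list (Bmf lost, adjusted p = 0.0524) and 519 of all genes passed. Arrays give no depth; dim probe sets, such as those of Bcl2l1, limit what can be seen.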
